A study of Mus musculus with 6 samples.

Results

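The Notch pathway and the transcription factors that divide intestinal cells between the absorptive and the secretory fate were followed in colonic epithelium of mice lacking miR-31. The 10 genes are the receptors Notch1 and Notch2, the ligands Jag1, Dll1 and Dll4, the nuclear mediator Rbpj, the Notch-induced repressors Hes1 and Hey1, and the secretory factors Atoh1 and Gfi1. They were taken as every non-control probe whose RefSeq accession maps to one of these symbols, which gave 12 probes for 10 genes of the 23462 named genes on the array. Gfi1 and Rbpj had 2 probes each, and the other 8 genes had 1.

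Expression was measured in 3 miR-31 knockout and 3 wild-type mice, all male, with 1 Agilent one-colour array per mouse. Replicates are numbered here in the order in which the samples of each group are listed, and the numbers pair no mice. The tissue was colonic epithelium that was separated by flow into TRIzol, per the design note. Strain, age, the gate of the separation, and how and in which cells miR-31 was deleted are not given in the sources used here. No probe for miR-31 was analysed here, so the deletion was not checked. Values are log2 signals relative to the 75th percentile of the array, so that 0 is the signal of that percentile, and a difference of 1 is a 2-fold difference. Levels of different probes cannot be set against each other, since probes differ in how well they bind.

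In the intestine, a Notch receptor binds a ligand on a neighbouring cell and is cut by gamma-secretase, and its freed intracellular part joins the DNA-binding protein RBPJ to switch on genes such as Hes1. HES1 represses Atoh1, the factor that commits a progenitor to the goblet, enteroendocrine and related secretory fates. Cells with high Atoh1 carry the Delta ligands and hold their neighbours in the absorptive path. GFI1 acts after ATOH1 and favours goblet over enteroendocrine cells.

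The printed sequences are those of the deleted microRNA and of the promoter on which the Notch and secretory arms meet. The mature strands of miR-31 come from chr4:88910614-88910635 and chr4:88910577-88910599 on the minus strand (RefSeq, GRCm38.p6), with the seed, bases 2 to 8, in capitals.
mmu-miR-31-5p: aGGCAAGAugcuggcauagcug
mmu-miR-31-3p: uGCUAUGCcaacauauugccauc

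The class C site CACGCG, a form that Hairy and Enhancer of split repressors such as HES1 can bind, was searched on both strands in the 250 bases before each start in the RefSeq promoter table (GRCm38.p6). The Atoh1 promoter, chr6:64728875-64729124 on the plus strand, held 3 of them, shown in capitals (the third reads CGCGTG, the same site on the other strand).
Atoh1: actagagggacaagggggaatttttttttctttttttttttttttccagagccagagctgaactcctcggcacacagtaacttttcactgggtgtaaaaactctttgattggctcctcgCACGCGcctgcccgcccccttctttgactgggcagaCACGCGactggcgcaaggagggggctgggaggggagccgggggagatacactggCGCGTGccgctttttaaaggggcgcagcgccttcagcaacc

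Of all 32851 promoters, 7.62% held at least 1 CACGCG and 0.225% held 3 or more. Of the 8 genes described here that the table holds, 5 had at least 1, against 8.65% of all 27025 genes. These promoters were richer in G and C than the median promoter, with 55.6% to 72.0% against 52.4%, and the site itself consists of such bases apart from an A. The other genes with the site were the ligands Jag1, Dll1 and Dll4 and the receptor Notch2, whose sites are printed in capitals for comparison with Atoh1. They lie 171 bases before the start in Jag1 (a second one is at the edge of its window), 68 in Dll1, 195 in Dll4 and 42 in Notch2.
Jag1, chr2:137116674-137116703, minus strand: gagccaggcgggCACGCGtcattgtgttac
Dll1, chr17:15376983-15377012, minus strand: cttaatgacagcCACGCGaacgacacacac
Dll4, chr2:119325577-119325606, plus strand: ctgctcgccgggCACGCGcagagctggaag
Notch2, chr3:98013484-98013513, plus strand: gaggcggaaggaCACGCGggccgcccagcc

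The core TGGGAA of the RBPJ binding motif, searched in the same way on both strands, was in 21.6% of promoters and 24.1% of genes. Hes1 and Hey1 have no entry in the promoter table, so they were not searched for either motif. Among the 8 genes only Rbpj itself held it, at 149 and 65 bases before the upstream start (chr5:53590185-53590214 and chr5:53590269-53590298, plus strand). The second reads TTCCCA, the same motif on the other strand, and also lies 205 bases before another Rbpj start. The motifs are descriptions of letters, not measured binding.
Rbpj, first: aatgaaaaaggcTGGGAAcccgcggcgagc
Rbpj, second: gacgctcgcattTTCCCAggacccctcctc

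No difference between knockout and wild-type epithelium passed the test for these genes. Across the array, 0.208% of 27916 tested features passed at an adjusted p under 0.05 (limma with Benjamini-Hochberg adjustment), 0.147% as higher and 0.0609% as lower, and 0 of the 9 tested genes did. At an unadjusted p under 0.05 the array-wide share was 10.7%, and the count among the 9 genes was again 0. The 9 genes split into 5 with a positive and 4 with a negative log2 change, with a median of 0.040, beside a median of -0.061 over all tested features. Over the 15253 tested features with a gene symbol the median was -0.033. For 8 of the 9, the 95% interval of the change lay within 2-fold either way, and the exception was Hey1. Jag1 was the 1 gene left out of the test.

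**Figure D1:**
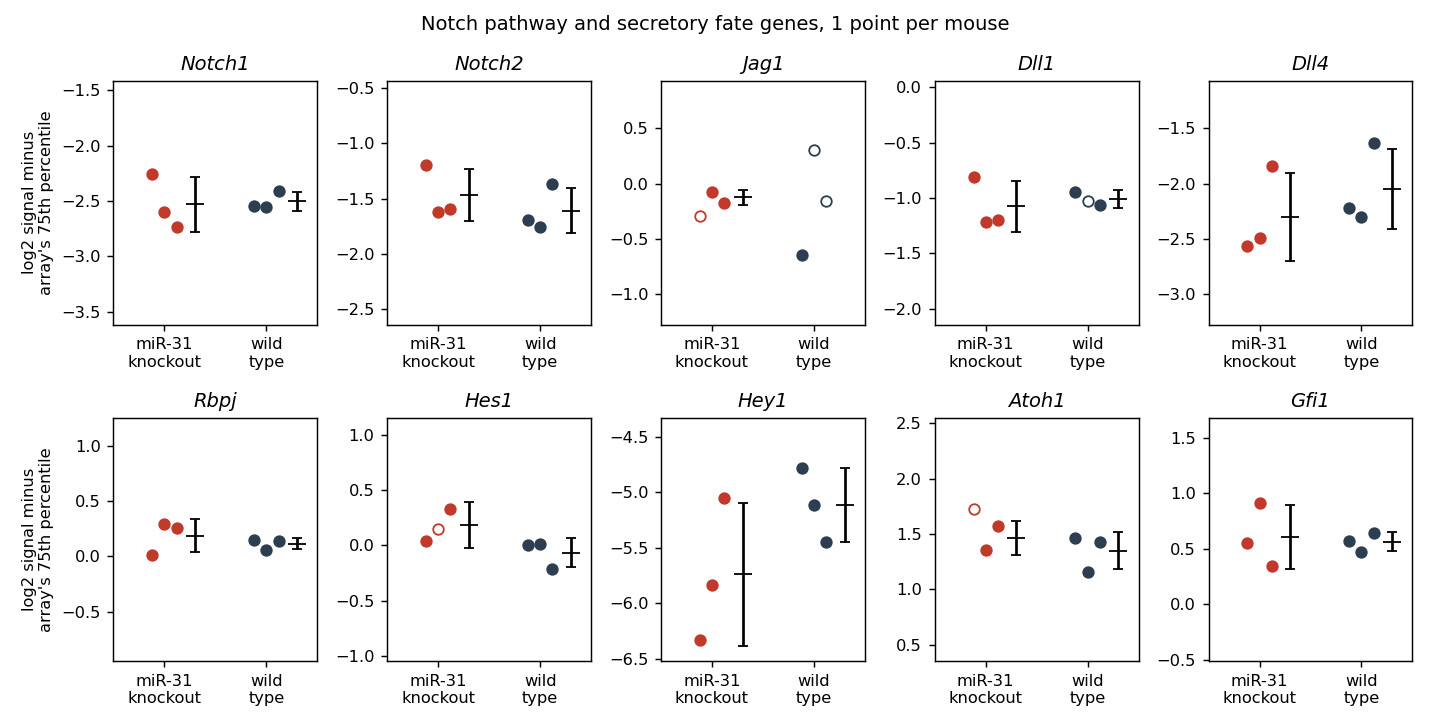
Signal of each gene (vertical axis, log2 relative to the array's 75th percentile, all panels spanning the same range) in each knockout mouse (left) and wild-type mouse (right). Open circles are spots marked by the extraction software and left out, and bars are means and SD of the unmarked spots where there are at least 2. The groups overlap in every gene except Hes1, and Jag1 for its unmarked spots.

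The receptors differed between the groups by less than the spread of the mice. Notch1, the main receptor of crypt progenitors together with Notch2, had log2 signals of -2.25, -2.60 and -2.74 in knockout mice, against -2.55, -2.56 and -2.41 in wild-type mice. Knockout replicate 1 was the highest and knockout replicate 3 the lowest of all 6 arrays, so the knockout values enclosed the wild-type ones. The log2 change was -0.025 ± 0.15 (SE, n = 3 and 3, adjusted p = 0.972 by limma), with a 95% interval from 0.763-fold to 1.27-fold.

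Notch2 had log2 signals of -1.20, -1.62 and -1.59 in knockout mice, against -1.70, -1.76 and -1.37 in wild-type mice. The mean was -1.47 ± 0.24 in knockout mice and -1.61 ± 0.21 in wild-type mice (SD, n = 3 each), and wild-type replicate 3 lay above knockout replicates 2 and 3. The log2 change was 0.14 ± 0.17 (SE, adjusted p = 0.820 by limma), and the interval ran from 0.830-fold to 1.46-fold.

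Among the ligands, Dll1, a Delta ligand that secretory progenitors display to their neighbours, had log2 signals of -0.81, -1.22 and -1.20 in knockout mice, against -0.95, -1.02 and -1.06 in wild-type mice. The spot of wild-type replicate 2 was marked and left out of the fit, which gave a log2 change of -0.068 ± 0.18 (SE, n = 3 and 2, adjusted p = 0.923 by limma). The knockout values again spread on both sides of the wild-type ones.

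Dll4, a Delta ligand of secretory cells and of endothelium, had log2 signals of -2.56, -2.49 and -1.84 in knockout mice, against -2.22, -2.30 and -1.63 in wild-type mice. Replicate 3 was clearly the highest array of each group. These are also the arrays whose titles carry numbers apart from the rest, while the titles of replicates 1 and 2 carry neighbouring numbers. Among replicates 1 and 2 the Dll4 mean was -2.53 in knockout and -2.26 in wild-type mice, a difference of -0.27, and between the other 2 arrays the difference was -0.21. Pooled, the log2 change was -0.25 ± 0.26 (SE, n = 3 and 3, adjusted p = 0.781 by limma). With a term for the title number it was -0.25 ± 0.11 with an unadjusted p of 0.0667 and an adjusted p of 0.441 by limma. The labels do not say what the title numbers stand for. The same split gave opposite signs for Notch1 (0.13 and -0.33), Notch2 (0.32 and -0.22), Gfi1 (0.21 and -0.30) and Hey1 (-1.14 and 0.40). Dll1, Hes1, Atoh1, Rbpj and, with marked spots kept, Jag1 had the same sign in both parts.

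Jag1, the Serrate-type ligand, had log2 signals of -0.29, -0.076 and -0.17 in knockout mice, against -0.64, 0.30 and -0.16 in wild-type mice. The extraction software had marked the spots of knockout replicate 1 and wild-type replicates 2 and 3 as outliers, which left a single wild-type value and no test. With marked spots kept, the means were -0.18 ± 0.11 in knockout mice and -0.17 ± 0.47 in wild-type mice (SD, n = 3 each), and the log2 change was -0.013 ± 0.24 (SE, adjusted p = 0.991 by limma). In that fit 0 of all 10 genes passed, beside 0.17% of features, and 0 had an unadjusted p under 0.05, beside 10.4% of features. The interval for Jag1 ran from 0.674-fold to 1.46-fold.

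Rbpj, whose protein carries the Notch signal onto DNA and represses the same genes without it, had log2 signals of 0.015, 0.29 and 0.25 in knockout mice, against 0.15, 0.062 and 0.14 in wild-type mice. Its log2 change of 0.071 ± 0.12 (SE, n = 3 and 3, adjusted p = 0.879 by limma) had the narrowest interval of the 9, from 0.856-fold to 1.29-fold. The other, dimmer Rbpj probe gave -0.19 ± 0.23 (SE, unadjusted p = 0.437 by limma), so the sign depended on the probe and neither differed beyond its error.

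Hes1, the repressor of Atoh1 in crypts, had log2 signals of 0.036, 0.15 and 0.33 in knockout mice, against 0.0055, 0.016 and -0.22 in wild-type mice. All knockout values lay above all wild-type values, knockout replicate 1 by a narrow margin, and such a lack of overlap between groups occurred in 18% of all tested features. The spot of knockout replicate 2 was marked and left out of the fit. The log2 change was 0.25 ± 0.16 (SE, n = 2 and 3) with an unadjusted p of 0.179 and an adjusted p of 0.642 by limma, and the interval ran from 0.901-fold to 1.57-fold. Without knockout replicate 1 the change was 0.40, which rests on knockout replicate 3 alone, and with the slide column as a term it was 0.031, which rests on replicate 1 of each group alone.

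Hey1, a related repressor best known in endothelium and heart, was dim, with processed intensities of 43.9, 54.7 and 103 in knockout mice, against 110, 89.8 and 76.8 in wild-type mice. The spot of knockout replicate 1 was not well above background. On the log2 scale these were -6.33, -5.83 and -5.05 in knockout mice, against -4.78, -5.11 and -5.45 in wild-type mice, and knockout replicate 3 lay among the wild-type values. The log2 change was -0.63 ± 0.33 (SE, n = 3 and 3, adjusted p = 0.557 by limma), the largest in size of the 9, with an interval from 0.374-fold to 1.12-fold. It was -0.97 without knockout replicate 3 (unadjusted p = 0.00719, adjusted p = 0.230 by limma) and -0.33 without knockout replicate 1, and -0.25 with normexp background correction. In the slide columns that hold both genotypes, the change was -1.14 ± 0.25 (SE, adjusted p = 0.126 by limma with slide column as a term), and between the other 2 arrays, replicate 3 of each group, it was 0.40.

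Endothelial markers were looked at beside Hey1 and Dll4. Of 12 listed markers, 5 were well above background on any array, and Cdh5, Kdr, Tek, Tie1, Flt1, Emcn and Erg were not on any. The summed linear signal of the 5, as a multiple of the 75th percentile, ranged from 0.507 to 0.630 in knockout mice and from 0.590 to 0.643 in wild-type mice. Cldn5, an endothelial claudin, had a log2 change of -0.55 ± 0.15 (SE, unadjusted p = 0.00767, adjusted p = 0.293 by limma). It is named because its p was the smallest of the 5. Only 1 of the 5 was lower at an unadjusted p under 0.05, beside 7.55% of all features. The others were Eng at -0.26, Pecam1 at -0.18, Esam at -0.10 and Vwf at 0.047 (log2 change). The part of these markers in the values of Hey1 and Dll4 was not tested. In such bulk samples fewer cells of a type and less RNA per cell cannot be told apart.

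Atoh1, the master factor of secretory commitment whose promoter is shown above, had log2 signals of 1.72, 1.36 and 1.57 in knockout mice, against 1.46, 1.16 and 1.43 in wild-type mice. Knockout replicate 2 lay below wild-type replicates 1 and 3, so the groups overlapped. With the marked spot of knockout replicate 1 left out, the log2 change was 0.11 ± 0.16 (SE, n = 2 and 3, adjusted p = 0.849 by limma), and with it kept the change was 0.20 ± 0.15 (SE, n = 3 and 3, adjusted p = 0.695 by limma). The interval without it ran from 0.820-fold to 1.43-fold.

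Gfi1 had log2 signals of 0.55, 0.91 and 0.34 in knockout mice, against 0.57, 0.47 and 0.64 in wild-type mice. The knockout mice were more spread out, with an SD of 0.29 in knockout mice against 0.085 in wild-type mice, and their mean of 0.60 was close to the wild-type mean of 0.56. The log2 change was 0.040 ± 0.17 (SE, n = 3 and 3, adjusted p = 0.956 by limma), and a second, dimmer probe gave -0.0049 ± 0.21 (SE, unadjusted p = 0.982 by limma).

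**Figure D2:**
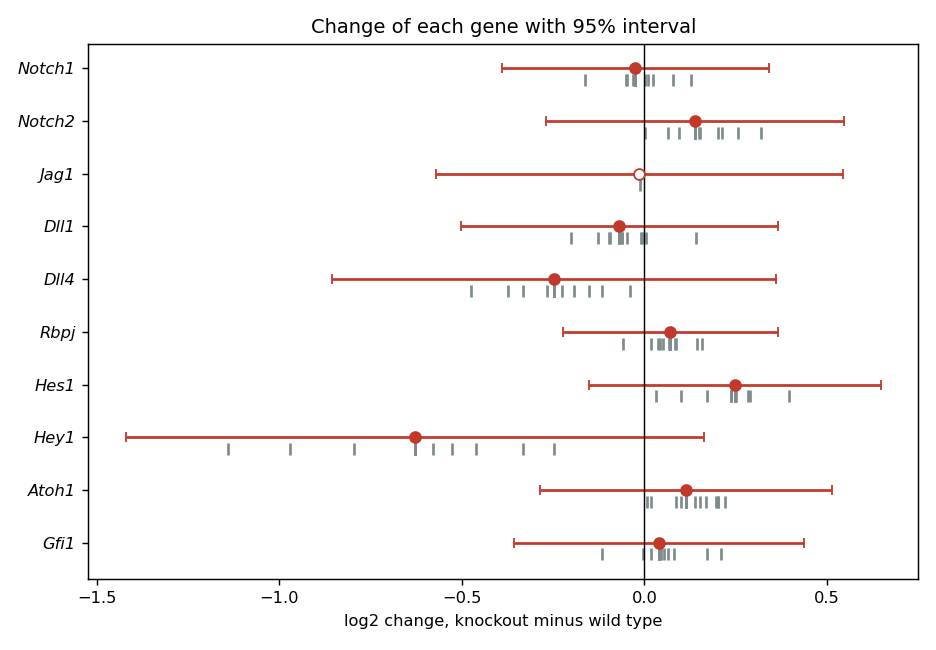
Log2 change of each gene, knockout minus wild type (horizontal axis), with its 95% interval from limma (circle and bar) and the values under the alternative settings (grey ticks). Jag1 is drawn open because its value keeps the marked spots. Every interval includes 0, and Hey1 has the widest.

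Genes that share a pattern over the mice were sought for both ends of the switch. Over the 5 arrays with an unmarked Hes1 spot, the closest of 12817 genes were 1700057G04Rik, Wdfy4 and Septin6, with mean absolute differences of 0.042, 0.054 and 0.062 SD. For Atoh1 they were 4930480K23Rik, Syt15 and Zfp251 of 13172 genes, at 0.030, 0.047 and 0.106 SD. None of these is a Notch pathway gene of the lists used here. With 5 values per gene and this many genes compared, close matches can arise by chance. Shared regulation was not tested.

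The rest of the pathway was examined in 10 further lists by role, with 84 genes, of which 81 were on the array and 62 could be tested. Of these 62, 0 passed in either direction, and 38 had a positive and 24 a negative log2 change, with a median of 0.055. At an unadjusted p under 0.05, 4 were higher and 0 were lower, beside array-wide shares of 3.18% for higher and 7.55% for lower features. Among the 15253 tested features with a gene symbol, 519 were higher and 890 were lower, and the median change was -0.033. With marked spots kept 78 could be tested, of which 0 passed, 3 were higher and 2 were lower at an unadjusted p under 0.05, beside 10.4% of all features in either direction.

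**Figure D3:**
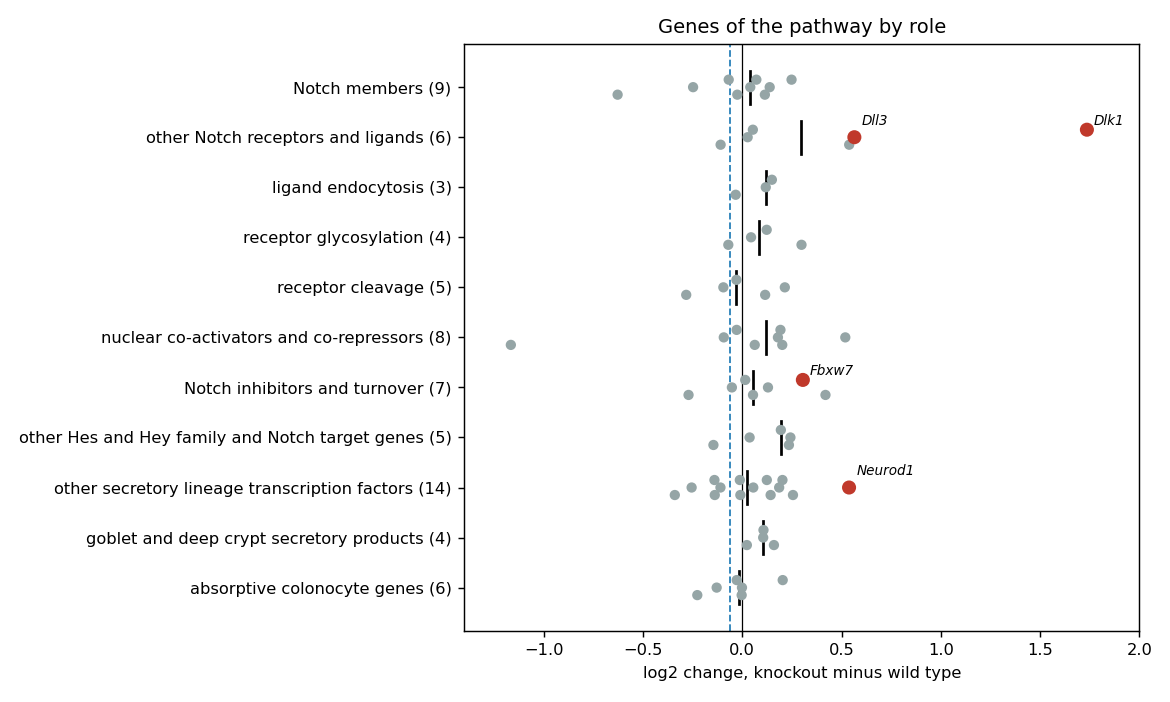
Log2 change, knockout minus wild type (horizontal axis), of each tested gene by role, with the number tested in brackets. Black bars are list medians, the dashed line is the median of all tested features at -0.061, and red points are the 4 genes with an unadjusted p under 0.05, of which Dlk1 is the farthest from 0 at 1.74.

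Of the other receptors and ligands, 6 of 6 were tested and 0 passed. Dlk1, an imprinted gene for a Delta-like protein that lacks the domain by which the classical ligands bind and is described as a modulator of Notch, came closest. It had log2 signals of -1.60, -1.35 and -2.07 in knockout mice, against -3.52, -3.64 and -3.07 in wild-type mice. The groups were far apart, and the log2 change was 1.74 ± 0.23 (SE, n = 3 and 3), or 3.33-fold with an interval from 2.27-fold to 4.88-fold, at an adjusted p of 0.0624 by limma. The other Dlk1 probe gave 1.58 ± 0.30 (SE, unadjusted p = 0.00116 by limma), also without overlap.

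Dlk1 passed in 4 of the 15 alternatives. These were normexp background correction (log2 change 1.60, adjusted p = 0.00912 by limma), the slide column term (2.11, adjusted p = 0.0214), trend and robust variance (1.74, adjusted p = 0.0109) and leaving out knockout replicate 3 (1.93, adjusted p = 0.0241). Replicate 3 of each group is alone in its slide column, so the column term rests on replicates 1 and 2. It thus overlaps with leaving out knockout replicate 3. With so few arrays behind the column term, the error of that fit came largely from the spread of all features. Over all alternatives the adjusted p of Dlk1 ranged from 0.00912 to 0.320 and its change from 1.57 to 2.11, always higher in knockout mice.

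Dll3, a divergent Delta ligand that does not activate receptors on neighbouring cells, was dim, with log2 signals of -6.07, -6.07 and -6.29 in knockout mice, against -6.37, -6.59 and -7.16 in wild-type mice. The probe was well above background on 4 of 6 arrays. Its log2 change of 0.56 ± 0.21 (SE, adjusted p = 0.418 by limma) was 0.18 with normexp background correction.

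Genes that ready ligands and receptors for signalling were listed by step. In the ligand endocytosis list 0 of 3 tested genes passed, with Mib2, a ubiquitin ligase acting on ligands, at 0.15 ± 0.13 and Neurl1a at 0.12 ± 0.23 (SE of the log2 change, n = 3 and 3). In the receptor glycosylation list 0 of 4 passed. Lfng, a Fringe sugar transferase that alters which ligand a receptor answers to, was at 0.30 ± 0.29 and its relative Mfng at 0.12 ± 0.17. In the receptor cleavage list 0 of 5 passed, with Furin at 0.21 ± 0.13. Adam10, the protease that sheds the receptor's outer part, was at -0.28 ± 0.18 (SE, n = 3 and 2), and a brighter probe with all spots marked gave 0.15 ± 0.14 when the marks were ignored.

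In the nucleus, 0 of 8 tested co-activators and co-repressors passed. Maml2, a Mastermind co-activator of the Notch and RBPJ complex, had a log2 change of 0.52 ± 0.22 (SE, unadjusted p = 0.0525, adjusted p = 0.468 by limma). The probe was dim, and the change was 0.19 with normexp background correction and 0.34 to 0.73 with 1 array left out, lowest without knockout replicate 2. Among 7 tested inhibitors and turnover genes 0 passed. Fbxw7, the ubiquitin ligase subunit that marks the Notch intracellular part for destruction, had log2 signals of -1.59, -1.59 and -1.78 in knockout mice, against -1.94, -1.99 and -1.94 in wild-type mice. Its log2 change was 0.31 ± 0.11 (SE, unadjusted p = 0.0324, adjusted p = 0.415 by limma). A brighter Fbxw7 probe with 3 marked spots went the other way, at -0.086 ± 0.13 with the marks ignored, so the value of Fbxw7 depends on the probe. Dtx3, of the Deltex family, was at 0.42 ± 0.26 (SE, n = 2 and 3).

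Of the other Hes and Hey family and Notch target genes 0 of 5 tested passed, with Hes5 at 0.24 ± 0.16 and Hes7 at 0.24 ± 0.16 (SE of the log2 change). A second Hes5 probe gave -0.067 ± 0.13. Olfm4, a stem cell gene induced by Notch, was not analysed here. Hes3, Hey2 and Heyl did not pass the filter on dim probes, also with marked spots kept.

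In the list of other secretory lineage transcription factors, 0 of 14 tested genes passed, with 7 above and 7 below 0 and a median log2 change of 0.023. Neurod1, a factor of enteroendocrine cells, had log2 signals of -0.58, -0.12 and -0.75 in knockout mice, against -1.02, -1.14 and -0.90 in wild-type mice, without overlap. Its log2 change was 0.54 ± 0.18 (SE, unadjusted p = 0.0222, adjusted p = 0.377 by limma). Gfi1b, a relative of Gfi1 found in tuft cells, was at -0.34 ± 0.19.

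Of goblet and deep crypt secretory products 4 could be tested and 0 passed, with the mucin gene Muc2 at 0.16 ± 0.11 and Tff3, the goblet trefoil peptide gene, at 0.11 ± 0.12 (SE of the log2 change, n = 3 and 3). With marked spots kept, 0 of 10 passed, with a median of 0.065. Of absorptive colonocyte genes 6 could be tested and 0 passed, with Krt20, a keratin of surface cells, at 0.20 ± 0.15 (SE, n = 2 and 3) and Ceacam20 at -0.23 ± 0.18. With marked spots kept 0 of 9 passed, of which 2 were lower at an unadjusted p under 0.05, beside 10.4% of all features in either direction. These were Slc9a3, a sodium and proton exchanger gene, at -1.02 ± 0.41 and Car4, a carbonic anhydrase gene, at -0.43 ± 0.17 (adjusted p of 0.460 and 0.463 by limma), named here after their values were seen.

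**Figure D4:**
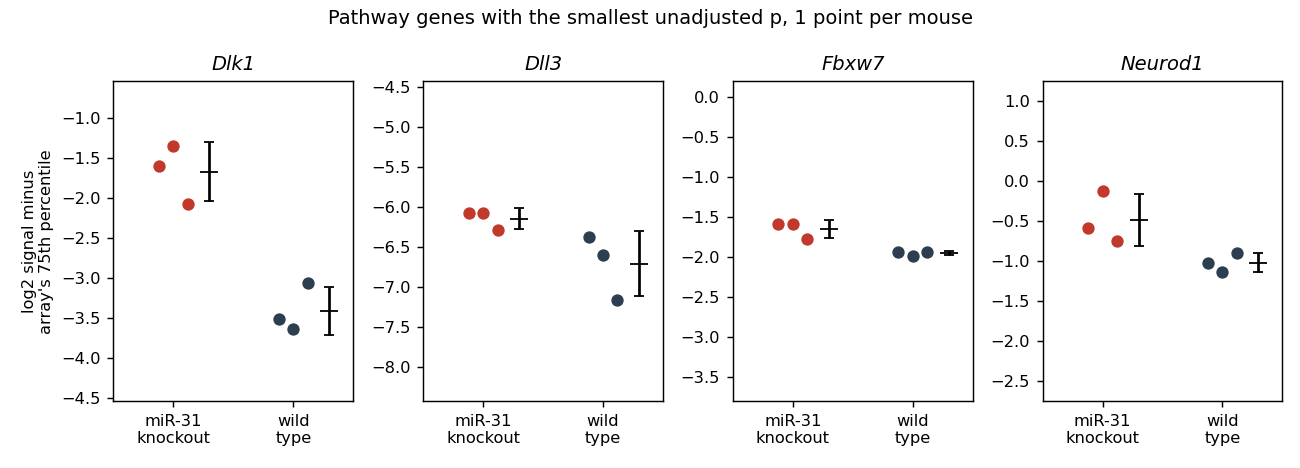
Signal (vertical axis, log2 relative to the array's 75th percentile, panels spanning the same range) in each knockout (left) and wild-type (right) mouse for the 4 further pathway genes with an unadjusted p under 0.05, with means and SD (n = 3 each). The groups do not overlap in any of the 4, which were chosen for a small p, and the gap is widest for Dlk1. Among all 62 tested further pathway genes the groups did not overlap in 6, beside 18% of all tested features.

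Across the 6 arrays, signal at the 75th percentile lay between 3005 and 3539, and 68.1% to 76.7% of spots were well above background. All 11 epithelial markers were well above background on at least 1 array, and their 5 tested members summed to 61.3 to 64.9 times the 75th percentile in knockout mice and 62.1 to 67.7 times in wild-type mice. Markers of T cells, B cells and myeloid cells were also detected. Their sums ranged from 1.35 to 2.63, 0.196 to 0.289 and 22.7 to 24.5 in knockout mice, against 1.41 to 1.95, 0.159 to 0.184 and 21.2 to 24.7 in wild-type mice, and their part in the results was not tested. The B cell sums did not overlap between the groups. Of the 6 B and plasma cell markers, 5 had a positive and 1 a negative log2 change. Jchain, named because its p was the smallest of the 6, was at 1.20 ± 0.24 (SE, unadjusted p = 0.00176, adjusted p = 0.191 by limma). It was the only 1 higher at an unadjusted p under 0.05, beside 3.18% of all features. The myeloid sum came mostly from the Itgam probe, at log2 signals of 3.98 to 4.29, while Lyz2 was at -5.88 to -4.10. Sums of different lists therefore do not give shares of cell types. All of these sums kept marked spots, such as that of Lgals4 in knockout replicate 1. Fibroblast and smooth muscle markers summed to 1.82 to 3.03 in knockout mice and 2.18 to 2.82 in wild-type mice. All arrays were on 1 slide, with knockout mice in row 1 and wild-type mice in row 2, so slide row and genotype cannot be told apart.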

How the data were processed

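RNA of colonic epithelium from 3 miR-31 knockout and 3 wild-type male mice was hybridised to 1-colour (Cy3) Agilent arrays, 1 per mouse. The deposited scanner files hold the processed intensity of each spot, background-subtracted and detrended, from Agilent Feature Extraction 11.5.1.1 per the file headers (10.7 per the submitters' processing notes). The series table holds the same intensity per probe, as deposited. It is not normalized between arrays, and 97.2% of entries matched the scanner signal, averaged by probe, to within 0.01 (log2).

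Control spots (3671 of 62976) were left out. Intensities were taken as log2 minus the 75th percentile of the array. Marked outlier spots (4.95% to 17.3% per array) were left out, except in the summed marker signals. No spot was saturated (0), and spots of a probe were averaged. Probes were named by matching RefSeq accessions to a GRCm38.p6 gene table (33767 of 56605 probes matched). A probe was tested when well above background on at least 3 arrays with at least 2 unmarked arrays per group, and the brightest tested probe stood for a gene, which left 27916 features. The SE of a second probe comes from the same fit over all probes.

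The genotypes were compared by limma 3.58.1 (lmFit, eBayes, two-sided) in R 4.3.3 over all features, with Benjamini-Hochberg adjustment at 0.05. The number of arrays limits the precision. The script was tested on simulated data. The genes and lists were chosen with earlier results of these data known. All 10 genes are named, with the 2 genes of each other list with the smallest unadjusted p (the rule allowed up to 3), and exceptions are marked. A gene that this rule names is not reported here. Alternatives were normexp, quantile normalization, no dim filter, marked spots kept, mean of probes, the series table, slide column, title number, trend and robust variance, and leaving out each array.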

Additional observations from a re-analysis of the deposited data

How the results depend on the processing

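The count of 0 among the Notch and secretory fate genes held under all 15 alternatives run. Notch2, Dll4, Hes1, Hey1 and Atoh1 kept their direction in all of them, although with 1 array left out Notch2 ranged from 0.0021 (without knockout replicate 1) to 0.26, Atoh1 from 0.0058 (without knockout replicate 3) to 0.22, Dll4 from -0.48 to -0.039 (without wild-type replicate 3) and Hes1 from 0.10 to 0.40. The sign turned in some settings for Notch1, Dll1, Gfi1 and Rbpj. Jag1 had values only with marked spots kept and with the series table, both at -0.013. Notch1 was at 0.0011 with quantile normalization and 0.13 with the slide column, and between -0.16 and 0.079 with 1 array left out. Dll1 was at 0.14 with the slide column and between -0.20 and 0.0044 with 1 array left out, Gfi1 between -0.11 and 0.17 with 1 array left out, and Rbpj at -0.058 with the mean of its probes. Among the other pathway genes, Adam10 was at 0.15 and Fbxw7 at -0.086 both with marked spots kept and with the series table, each through a brighter probe that entered there. Dtx3 was at -0.024 and Neurl1a at -0.065 with the slide column. With 1 array left out Lfng ranged from -0.024 to 0.48 and Neurl1a from -0.13 to 0.31. The count of called pathway genes outside the 10 was 1 with normexp, with the slide column and with trend and robust variance, and 0 to 1 with 1 array left out, and that gene was Dlk1. The count over all features, 58, was 100 with normexp, 35 without the dim filter, 216 with the slide column and 106 with trend and robust variance. Leaving out 1 array gave 22 to 116 calls: 116 for knockout replicate 3, 30 for knockout replicate 2, and 22, 28 and 38 for wild-type replicates 1, 2 and 3. The causes were not tested. Normexp used the median spot signal, since the files have no mean signal column, and was chosen after seeing the data. No paired analysis was possible because the labels give no replicate numbers shared between the groups, and the slide column term compares arrays by position, not paired mice. For every feature that term rests on replicates 1 and 2, since replicate 3 of each group is alone in its column. The error under that term, also behind its 216 calls, came largely from the spread of all features. Where a gene has a marked spot in replicate 1 or 2, as Dll1, Hes1 and Atoh1 do, that term rests on 1 array of each group, and leaving out an array can leave 1 in a group, whose spread is then assumed to be like that of the others. Signal near background limits Hey1 and Dll3, and marked spots limit Jag1.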
